A study of Mus musculus with 162 samples.

Results

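The 6 genes described here are the vitamin D receptor Vdr, its dimer partners Rxra and Rxrb, and 3 genes whose products make, break down or act downstream of active vitamin D: Cyp27b1, Cyp24a1 and Trpv6. They were taken by symbol from the 46078 genes that each count file lists. MC903 (calcipotriol) is a vitamin D analog that produces atopic dermatitis-like inflammation when it is put on mouse skin. The receptor and its feedback genes were therefore read for a response to the drug itself. In adult male C57BL/6 mice, MC903 (0.2 mM, in ethanol) or ethanol alone was applied each day, in a volume that the labels give as 20 µL. Skin and trigeminal ganglion, which holds the sensory neurons of the face, were taken from wild-type (WT) mice without injection at days 1, 2, 5 and 8, from WT mice injected with anti-Gr1 (250 µg, a neutrophil-depleting antibody) or PBS at day 8, and from TSLPR KO mice at days 8 and 12. Day 1 was 6 hours after the first treatment, per the study. Skin was also taken from BLT1 KO mice at day 8, and spinal cord from WT mice at day 8 without injection, with anti-Gr1 or with PBS. In the study the cheek was treated for skin and ganglion and the rostral back for spinal cord, where the study's methods give a larger volume than on the cheek, so the comparisons with spinal cord also differ in the treated site and the dose. TSLPR KO mice lack the receptor of the cytokine TSLP, encoded by Crlf2, and BLT1 KO mice lack a leukotriene B4 receptor, encoded by Ltb4r1. The controls of each KO comparison were ethanol-treated mice of the same genotype.

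Active vitamin D binds VDR, which pairs with a retinoid X receptor (RXR) and attaches to DNA at repeats of a short hexamer. Cyp27b1 makes the active hormone, Cyp24a1 breaks it down, and the activated receptor is known to raise Cyp24a1, which limits the signal. Keratinocytes of the skin carry the receptor and both enzymes, and the receptor is also needed for hair cycling.

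Of the 162 libraries 144 were used: 61 of skin, 56 of trigeminal ganglion and 27 of spinal cord. The 18 libraries of WT mice at day 12 were left out. In 13 of these 18 libraries the markers of keratinocytes and sensory neurons went against the labelled tissue, which was the case for 0 of the skin and ganglion libraries used. A library held between 15931871 and 67342879 counts over all genes, and levels are given as cpm, a gene's counts scaled to a library total of 1000000. No pair of libraries was identical. Nothing in the labels says which libraries of a group came from separate animals, so the p-values measure the spread between these libraries. In uninjected WT skin at day 8, some sample titles are bracketed. Among these, MC903 replicate 1 and ethanol replicate 3 are each listed more than once, and every such library was used as its own. Crlf2 lay between 0.0691 and 0.277 cpm in TSLPR KO skin at day 8, against 2.24 to 12.3 cpm in skin of uninjected WT mice at that day, and between 0.405 and 1.34 cpm in TSLPR KO skin at day 12. Ltb4r1 was still counted in BLT1 KO skin, at 2.33 to 3.70 cpm with ethanol and 10.6 to 15.1 cpm with MC903, below the 6.66 to 10.5 and 33.5 to 77.6 cpm of WT skin at day 8. In TSLPR KO ganglia at day 12 Crlf2 reached 2.06 cpm, inside the range of WT ganglia, so there the count does not check the label. In bulk tissue, fewer cells of a type and less RNA per cell cannot be told apart.

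The stretch upstream of the start site was available in RefSeq (GRCm38.p6) for 5 of the 6 genes, and 250 bases are printed for the receptor, the activating enzyme and the calcium channel because these are the genes on which VDR feedback is known to act. The search was for a direct repeat with a 3-base gap: 2 hexamers, each AGGTCA or AGGTGA or AGTTCA or AGTTGA or GGGTCA or GGGTGA or GGTTCA or GGTTGA, on either strand, with up to 2 mismatches in all. Capitals mark both hexamers of each match. The windows are chr15:97908297-97908546 (minus strand) for Vdr, chr10:127047996-127048245 (plus strand) for Cyp27b1 and chr6:41636406-41636655 (minus strand) for Trpv6.
Vdr: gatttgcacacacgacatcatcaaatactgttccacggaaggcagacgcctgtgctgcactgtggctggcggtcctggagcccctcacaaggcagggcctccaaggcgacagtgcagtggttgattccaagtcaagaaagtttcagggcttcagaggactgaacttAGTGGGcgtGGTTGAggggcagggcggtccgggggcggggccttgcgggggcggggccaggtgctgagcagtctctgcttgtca
Cyp27b1: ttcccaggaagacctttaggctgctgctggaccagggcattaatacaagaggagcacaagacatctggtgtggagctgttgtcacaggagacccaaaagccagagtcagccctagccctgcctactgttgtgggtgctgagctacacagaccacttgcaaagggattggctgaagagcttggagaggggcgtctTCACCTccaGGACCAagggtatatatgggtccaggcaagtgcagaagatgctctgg
Trpv6: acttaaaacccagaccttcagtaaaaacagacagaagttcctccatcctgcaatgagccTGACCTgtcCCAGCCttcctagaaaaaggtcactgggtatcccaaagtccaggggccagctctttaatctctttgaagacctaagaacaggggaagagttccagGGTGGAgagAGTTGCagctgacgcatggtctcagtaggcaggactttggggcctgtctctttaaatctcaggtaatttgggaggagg
The Vdr window held 1 match, the Cyp27b1 window 1 and the Trpv6 window 2, each with 2 mismatches, and the 4 windows of Rxra and Rxrb held 0. Of all 32851 upstream windows searched, 42.1% held such a match, so its presence does not set these genes apart. A match without mismatch was in 0.222% of all windows and in none of those of the 5 genes. The gene for Cyp24a1 lies on chromosome 2 at 170482708 to 170497145 (minus strand, GENCODE M21) and overlaps Pfdn4 on the opposite strand.

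Cyp24a1, the enzyme that inactivates vitamin D, was the gene that changed most of the 6, and it was already high in MC903-treated skin at day 1 and stayed high in every group. The 31 MC903 skin libraries lay between 1657 and 6748 cpm and the 30 ethanol skin libraries between 0.213 and 31.4 cpm, so the treatments did not overlap in any group. In the MC903 libraries Cyp24a1 ranked between 7 and 53 among all genes by cpm, with a median rank of 22, and took 0.166% to 0.675% of all counts on genes. Its median rank in ethanol skin was 11236.

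At day 1, 6 of 6 genes were tested and 4 were called at an adjusted p under 0.05 (edgeR quasi-likelihood test, Benjamini-Hochberg adjustment over all genes tested), where 13% of all genes were called. Cyp24a1 counted 1868, 1716, 1657 and 1971 cpm with MC903 and 6.67, 10.04, 2.89 and 2.08 cpm with ethanol. All 4 MC903 libraries lay far above all 4 ethanol libraries (log2 fold change 8.38 ± 0.50 SE, edgeR adjusted p = 2.74e-05). At day 2 the MC903 libraries read 2389, 5445 and 4105 cpm and the ethanol libraries 6.35 and 22.2 cpm. That difference, 8.005 ± 1.11 on the log2 scale, was not called (edgeR adjusted p = 0.172), and 0% of all genes were called with these 5 libraries (1191 genes had an unadjusted p under 0.05, and DESeq2 called 280). DESeq2 also called Cyp24a1 there (adjusted p = 3.86e-26). Without MC903 replicate 3, whose sensory neuron markers summed to 887 cpm against 12.6 and 17.5 cpm in the other two, Cyp24a1 was called (8.29, edgeR adjusted p = 0.0400). At day 5 the level was highest, at 6748, 5533 and 4992 cpm against 5.85, 7.67 and 6.79 cpm (9.61 ± 0.38, edgeR adjusted p = 1.3e-05), with 14.9% of all genes called.

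At day 8 in uninjected WT skin the 5 MC903 libraries held 3074, 4032, 2087, 2109 and 2335 cpm of Cyp24a1. The 6 ethanol libraries ran from 8.98 to 30.9 cpm, with a mean of 18.04 ± 7.47 cpm (SD), the highest ethanol mean apart from BLT1 KO skin. The log2 fold change was 7.24 ± 0.34 (edgeR adjusted p = 2.48e-08), where 23.4% of all genes were called. The effect at day 5 exceeded that at day 1 by 1.23 ± 0.52 and the effect at day 8 fell short of that at day 1 by a difference of -1.13 ± 0.49 on the log2 scale. Neither difference was called (edgeR adjusted p = 0.149 and 0.113, with 10.8% and 19.8% of all genes called). These tests thus did not resolve day 5 or day 8 from day 1. Day 5 was not tested against day 8. Its MC903 libraries, at 4992 to 6748 cpm, lay above those of day 8, at 2087 to 4032 cpm.

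**Figure D1:**
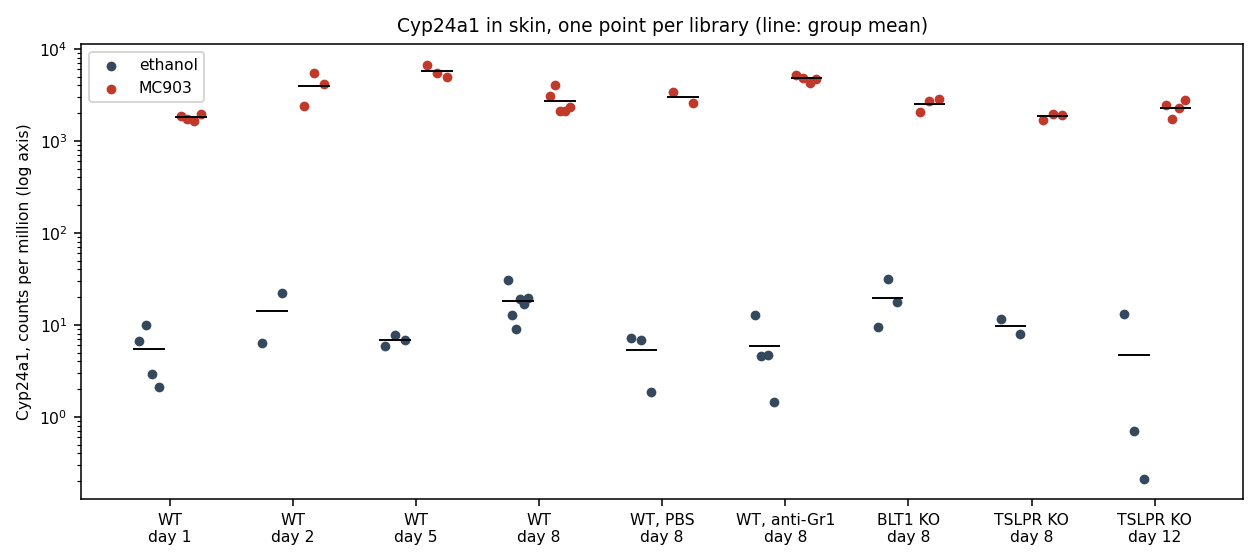
Cyp24a1 in skin in cpm on a log axis, 1 point per library, for the 9 comparisons of MC903 (red) with ethanol (dark), with a line at each group mean. The MC903 libraries sit between 1657 and 6748 cpm and the ethanol libraries between 0.213 and 31.4 cpm in every genotype, injection and day.

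The rise was present in both knockouts and with anti-Gr1. The neutrophil markers S100a8, S100a9, Ly6g, Cxcr2 and Csf3r, summed, were at 178 to 193 cpm in MC903 skin with anti-Gr1. They were at 299 to 393 cpm with PBS and 69.5 to 373 cpm in uninjected WT MC903 skin at day 8. The anti-Gr1 values lay below the PBS range but inside the uninjected range, so they do not check the depletion. Over all skin libraries S100a8 and S100a9 reached 194 and 189 cpm and Ly6g 0.542 cpm, so the sum says little of Ly6g. The study itself counted fewer neutrophils in MC903 skin with anti-Gr1 by flow cytometry. In BLT1 KO skin Cyp24a1 read 2059, 2725 and 2851 cpm with MC903 and 9.56, 31.4 and 17.6 cpm with ethanol (7.01 ± 0.49, edgeR adjusted p = 3.39e-05, 28.6% of all genes called). In TSLPR KO skin at day 8 it read 1678, 1944 and 1899 cpm against 11.5 and 8.04 cpm (7.59 ± 0.41, edgeR adjusted p = 7.79e-05), although only 2.44% of all genes were called. At day 12 in TSLPR KO skin the MC903 libraries ran from 1708 to 2768 cpm and the ethanol libraries read 13.2, 0.706 and 0.213 cpm (8.66 ± 1.47, edgeR adjusted p = 0.00738, 10% of all genes called). The error was the widest of the 9 skin comparisons. With anti-Gr1 it read 5261, 4779, 4294 and 4759 cpm against 12.7, 4.57, 4.70 and 1.44 cpm (9.34 ± 0.69, edgeR adjusted p = 3e-05, 32.6% of all genes called). With PBS it read 3406 and 2601 cpm against 7.26, 6.82 and 1.86 cpm (9.17 ± 0.70, edgeR adjusted p = 0.00211, 3.99% of all genes called).

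Between conditions at day 8, the Cyp24a1 effect was larger with anti-Gr1 than in uninjected WT skin by 2.11 ± 0.57 on the log2 scale (edgeR interaction, adjusted p = 0.0398, 4.56% of all genes called). The call held in 7 of 19 fits that each left out 1 library, with differences from 1.83 to 2.80. Against PBS, the injected control, the same effect differed by 0.21 ± 0.83 (edgeR adjusted p = 0.961, 0.232% of all genes called). The TSLPR KO effect differed from WT by 0.39 ± 0.46 and the BLT1 KO effect by -0.18 ± 0.50, neither called (edgeR adjusted p = 0.768 and 0.903, with 0.177% and 6.95% of all genes called).

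Vdr itself moved little and not in one direction. At day 1 it read 275, 265, 237 and 276 cpm with MC903 and 341, 359, 352 and 241 cpm with ethanol, lower by a log2 fold change of -0.32 ± 0.09 (edgeR adjusted p = 0.0486). The groups overlapped through the ethanol library at 241 cpm, and the call held in 2 of 8 fits that left out 1 library and was lost with library totals alone (edgeR adjusted p = 0.278). In BLT1 KO skin Vdr rose, from 91.6, 107 and 98.1 cpm to 211, 161 and 191 cpm, with no overlap (0.88 ± 0.13, edgeR adjusted p = 0.0012). This effect differed from that in WT skin at day 8 by 1.36 ± 0.28 (edgeR interaction, adjusted p = 0.00813), and it was called in 17 of 17 fits that left out 1 library. The ethanol level was the lower one in BLT1 KO skin, since WT ethanol skin at day 8 ran from 250 to 361 cpm. The hair follicle markers Krt71, Krt25, Krt35 and Lef1, summed, moved with it: they were at 5.79 to 188 cpm in BLT1 KO ethanol skin, at 172 to 610 cpm in BLT1 KO MC903 skin and at 4769 to 12747 cpm in WT ethanol skin at day 8. The 4 muscle markers were at 16423 to 27875 cpm in BLT1 KO ethanol skin and 2580 to 6516 cpm with MC903, and the part of either in the Vdr difference was not tested.

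In the other skin comparisons Vdr was not called. At day 8 in WT skin the MC903 libraries with bracketed sample titles read 207, 136 and 187 cpm and those with plain titles 306 and 318 cpm, while the ethanol libraries of both styles lay between 250 and 361 cpm. The log2 fold change over both was -0.42 ± 0.19 (edgeR adjusted p = 0.128). Within the bracketed libraries it was -0.83 ± 0.23 (edgeR adjusted p = 0.0418) and within the plain ones 0.05 ± 0.15 (edgeR adjusted p = 0.897), so the difference was seen in 1 of the label styles. The summed hair follicle markers moved with the split: they read 2654, 398 and 1299 cpm in the bracketed MC903 libraries, 5647 and 5551 cpm in the plain ones and 4769 to 12747 cpm with ethanol, and their part in the difference was not tested. The BLT1 KO difference of 1.36 from WT skin used WT libraries of both styles, while the BLT1 KO libraries all had plain titles. At day 5 Vdr read 154, 165 and 229 cpm with MC903 against 109, 109 and 131.8 cpm, without overlap (0.50 ± 0.26, edgeR adjusted p = 0.243). With anti-Gr1 it read 109 to 165 cpm against 41.8 to 157 cpm (0.43 ± 0.27, edgeR adjusted p = 0.256).

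Rxra, the main RXR of skin, was lower at day 1, at 172, 166, 150 and 182 cpm against 218, 268, 240 and 189 cpm with no overlap (-0.48 ± 0.08, edgeR adjusted p = 0.00618). The call held in 8 of 8 fits that left out 1 library and was lost with library totals alone (edgeR adjusted p = 0.0844). Other markers moved at day 1 as well: summed leukocyte markers were at 123.5 to 170 cpm with MC903 and 180 to 261 cpm with ethanol, and fibroblast markers at 3041 to 4875 and 4893 to 10558 cpm. Hair follicle markers overlapped, at 7628 to 11090 cpm with MC903 (median 8231) and 4359 to 8177 cpm with ethanol (median 4702). Their part in the day 1 changes of Vdr, Rxra and Cyp27b1 was not tested. Rxra was also lower in BLT1 KO skin, at 167, 136 and 157 cpm against 209, 211 and 174 cpm (-0.40 ± 0.13, edgeR adjusted p = 0.043), a call that held in 1 of 6 fits that left out 1 library. At day 8 in WT skin it did not pass the test (-0.04 ± 0.09, edgeR adjusted p = 0.823), and the effect at day 8 lay above that at day 1 by 0.46 ± 0.11 (edgeR interaction, adjusted p = 0.00532). Rxrb, its broadly expressed relative, was called in 0 of 9 skin comparisons, with log2 fold changes from -0.36 to 0.10 and levels of 17.9 to 40.7 cpm over all 61 skin libraries.

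Cyp27b1, the activating enzyme, was rare in skin, at 9 to 103 counts per library. At day 1 it fell, from 2.02, 4.43, 4.65 and 2.39 cpm with ethanol to 1.15, 0.733, 1.40 and 1.22 cpm with MC903 (-1.58 ± 0.31, edgeR adjusted p = 0.0116). All 4 MC903 libraries lay below all 4 ethanol libraries, and the call held in 8 of 8 fits that left out 1 library. It was lower with anti-Gr1 as well, at 0.411, 0.356, 0.685 and 0.446 cpm against 1.12, 0.987, 0.949 and 0.696 cpm (-1.36 ± 0.29, edgeR adjusted p = 0.00727). At day 2 the values were 0.600, 0.646 and 1.58 cpm against 3.36 and 2.32 cpm (-1.61 ± 0.62, edgeR adjusted p = 0.898). At days 5 and 8 in WT skin the log2 fold changes were -0.72 ± 0.39 and -0.39 ± 0.30, and with PBS, the injected control, 0.04 ± 0.50 (1.41 against 1.43 cpm), none called. In the knockouts they were 0.17 to 0.59, none called.

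Trpv6, an epithelial calcium channel that active vitamin D raises in the intestine, was not raised past the test in any skin comparison. It was lower in BLT1 KO skin, at 4.70, 1.71 and 2.78 cpm against 5.42, 7.12 and 8.40 cpm (-1.25 ± 0.35, edgeR adjusted p = 0.0273), a call held in 2 of 6 fits that left out 1 library. With anti-Gr1 it read 6.40, 5.18, 3.47 and 4.76 cpm against 5.29, 4.17, 9.13 and 9.48 cpm (-0.88 ± 0.29, edgeR adjusted p = 0.0464), with overlap, and scaling by library totals alone gave -0.50 (edgeR adjusted p = 0.230). That change of scaling moved the median log2 fold change of all genes from -0.02 to 0.34. At day 8 in WT skin the bracketed MC903 libraries read 6.25, 5.38 and 4.52 cpm and the plain ones 15.7 and 17.4 cpm. The pooled log2 fold change was -1.15 ± 0.44 (edgeR adjusted p = 0.078), made of -2.24 ± 0.45 within the bracketed libraries (edgeR adjusted p = 0.0126) and 0.08 ± 0.18 within the plain ones (edgeR adjusted p = 0.854). The lower Trpv6 values were thus in the MC903 libraries with 398 to 2654 cpm of hair follicle markers. With anti-Gr1 these markers were at 76.997 to 3406 cpm with ethanol and 5.50 to 347 cpm with MC903, and their part in the Trpv6 values was not tested.

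**Figure D2:**
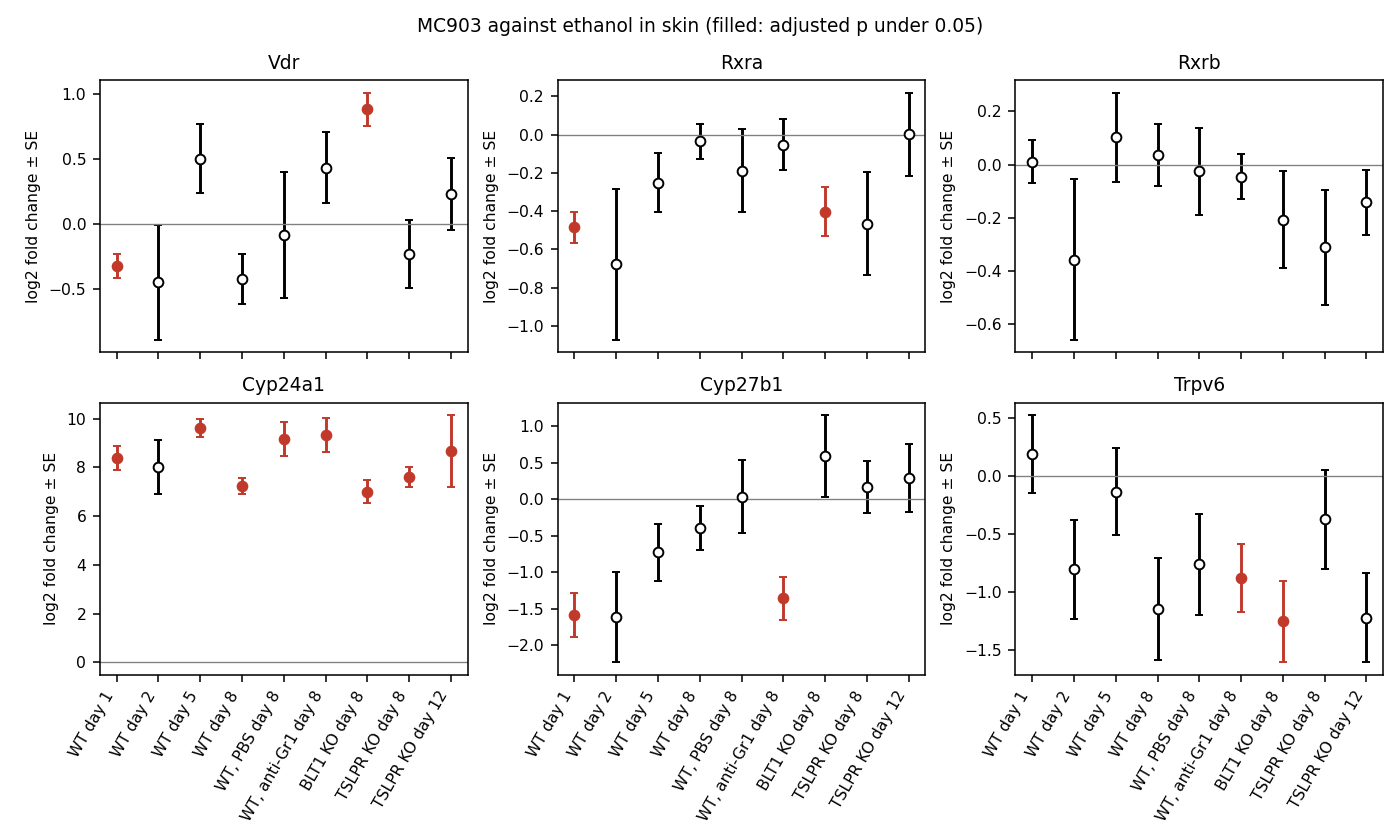
Log2 fold change of MC903 against ethanol ± SE for the 6 genes (panels, each with its own vertical scale) in the 9 skin comparisons, with filled red points at an adjusted p under 0.05. Cyp24a1 lies between 7.01 and 9.61, while the other 5 genes lie between -1.61 and 0.88.

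In all, 16 of the 54 tests of the 6 genes in skin were called, and Cyp24a1 gave 8 of these. Over the same 9 comparisons 14.5% of all tests of genes were called. The other 8 calls were 2 each for Vdr, Rxra, Cyp27b1 and Trpv6, or 17.8% of the 45 tests without Cyp24a1, a share near that of all genes.

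The rest of the pathway was read from 31 further genes of vitamin D metabolism, RXR and VDR cofactors and known targets, of which 28 or 29 passed the filter on low counts in each skin comparison. At day 1, 5 of 28 tested were higher and 3 lower, where 13% of all genes were called, with a median log2 fold change of 0.05 over the tested genes beside 0.00 over all genes. Hr, a corepressor of VDR, read 547 ± 58.6 cpm with MC903 and 258 ± 55.7 cpm with ethanol (SD, n = 4 each), a log2 fold change of 1.05 ± 0.13 (edgeR adjusted p = 0.00171). Atp2b1, a plasma membrane calcium pump, read 233 ± 17.2 against 127.5 ± 15.1 cpm (0.83 ± 0.08, edgeR adjusted p = 0.000361). The coactivator subunit Med1, the endocytic receptor Lrp2 and the secreted phosphoprotein Spp1 were also higher, by 0.37 to 1.38. Cubn, which works with Lrp2 in uptake of vitamin D carrier, Igfbp3 and Cd14 were lower, by log2 fold changes of -0.97 to -0.66. Over all 9 skin comparisons Cd14 was called higher in 5 and lower only in this 1, and Lrp2 was called higher only in this 1 and lower in 2.

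Later, 9 of 29 tested genes were higher and 4 lower at day 5, where 14.9% of all genes were called, and 9 of 29 were higher and 3 lower at day 8 in WT skin, where 23.4% were called. Over the 9 skin comparisons 31.4% of the 258 tests of these genes were called, against 14.5% for all genes. The list was chosen with earlier results of these data known, and the same genes recur over the comparisons. The excess is therefore a description and no test of the pathway. Tnfsf11 (RANKL, the osteoclast cytokine) was called higher in 7 of 9 skin comparisons, Spp1 in 8, and the calcium binding protein S100g, the phosphate hormone Fgf23 and the anticoagulant receptor Thbd in 6 each. At day 1 Tnfsf11 was at 0.519 to 0.962 cpm with MC903 and 0.598 to 1.09 cpm with ethanol, while at day 5 it was at 10.2 to 23.4 cpm and 0.201 to 0.263 cpm. Fgf23 was at 0 to 2 counts in the MC903 libraries of day 1, not detectable at this depth, and at 18 to 148 counts at day 5, where ethanol libraries held 0 to 1. S100g was at 4.59 to 11.02 cpm with MC903 at day 5, and with ethanol at 0.0723 to 0.321 cpm. Tnfsf11 and S100g did not pass the test at day 1, and Fgf23 had too few counts there to be tested. Cyp27a1, which hydroxylates vitamin D at an earlier step, was lower in 3 comparisons and Cubn in 4. Igfbp3 was lower in 5 and higher in none, and Txnip was lower in 3 and higher in 1. Summed neutrophil markers were at 41.3 to 86.95 cpm with MC903 at day 5 in WT skin and 5.24 to 11.1 cpm with ethanol. Keratinocyte markers were at 13116 to 18497 and 6469.6 to 8412 cpm there, while leukocyte markers overlapped between treatments. At day 8 in uninjected WT skin neutrophil markers were at 69.5 to 373 cpm against 10.85 to 18.3 cpm. The part of these cell types in the changes of the pathway genes was not tested.

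With ethanol, 5 of the 6 genes were higher in skin than in ganglion or spinal cord of WT mice at day 8 (edgeR, 1 fit over the 3 tissues, with 61.3% of all genes called between skin and ganglion and 62% between skin and cord). Vdr stood at 250 to 361 cpm in skin, and over all ganglion and cord libraries it ran from 0.791 to 13.1 and from 3.36 to 7.29 cpm. Its log2 difference from skin was 6.41 ± 0.34 for ganglion and 5.53 ± 0.32 for cord (edgeR adjusted p = 3.28e-12 and 1.28e-11). Rxra was higher in skin by 2.22 ± 0.15 and 1.81 ± 0.15, and Trpv6 by 5.25 ± 0.44 and 3.84 ± 0.40. Cyp27b1 was higher by 4.41 ± 0.67 and 4.24 ± 0.66, but 17 of 27 ethanol ganglion libraries held 3 counts or fewer of it. Rxrb did not pass the test (-0.12 ± 0.12 and -0.06 ± 0.12, edgeR adjusted p = 0.401 and 0.669). Between ganglion and cord, where 35.5% of all genes were called, Vdr was lower in ganglion by a log2 difference of -0.88 ± 0.29, Rxra by -0.41 ± 0.15 and Trpv6 by -1.41 ± 0.43, and Cyp24a1 was higher by 3.78 ± 0.93. That Cyp24a1 level was uneven, at 3.55 and 3.24 cpm in the ethanol ganglia whose sequencing lane also held skin libraries and 0.262, 0 and 0.354 cpm in the other three, with 0.0632 to 0.166 cpm in cord. Per kilobase of exon, the mean ethanol level in skin at day 8 was 54.6 cpm for Vdr, 33.2 for Rxra, 8.10 for Rxrb, 5.15 for Trpv6, 5.07 for Cyp24a1 and 0.753 for Cyp27b1. With MC903 Cyp24a1 stood at 766 cpm per kilobase, above Vdr at 40.9.

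**Figure D3:**
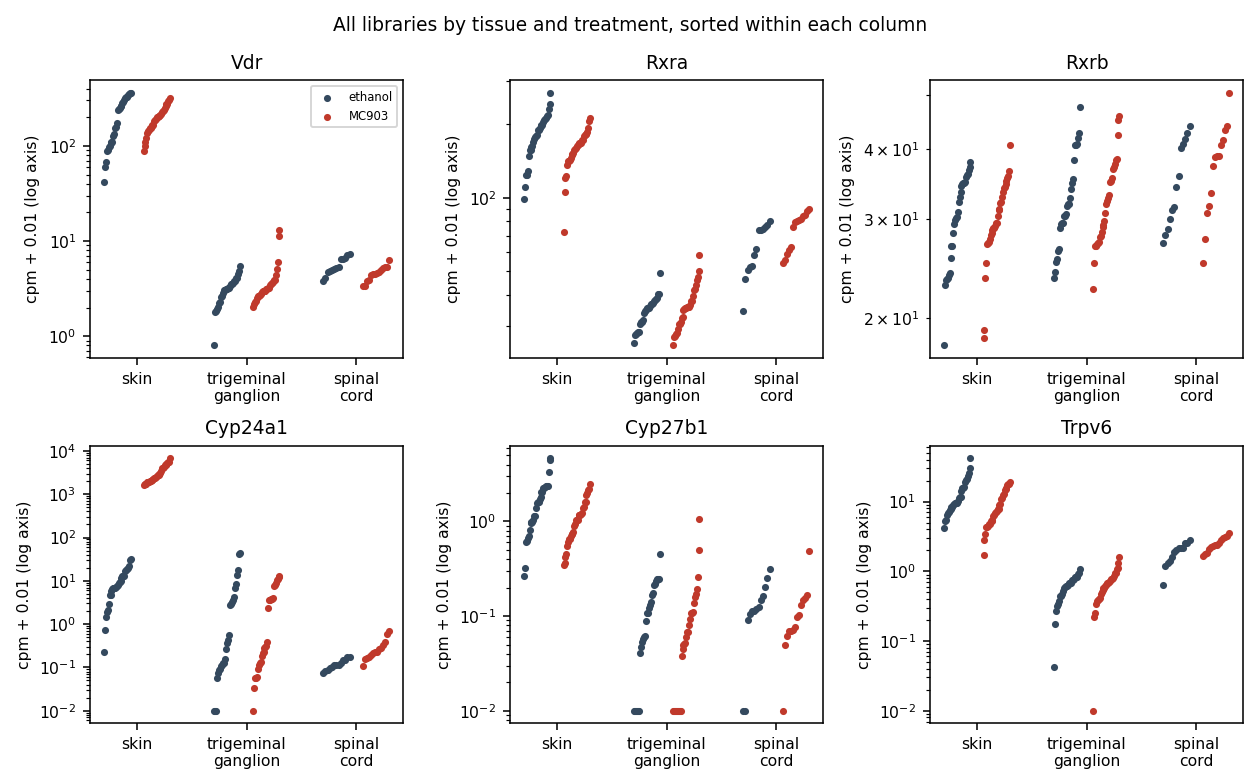
Levels of the 6 genes in cpm plus 0.01 on log axes, 1 point per library sorted within each column, by tissue and treatment. Cyp24a1 of MC903 skin, from 1657 to 6748 cpm, is apart from every other column, and Rxrb covers similar levels in the 3 tissues.

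In the trigeminal ganglion 0 of the 46 tests over 8 comparisons were called at an adjusted p under 0.1, the threshold of the study's methods for this tissue. The share of all genes called was 0% at days 1 and 2, 0.00823% at day 5 and 0.16% at day 8 in uninjected WT mice, 1.88% with anti-Gr1, 3.36% with PBS, and 0% and 0.304% in TSLPR KO mice at days 8 and 12. Where 0 genes were called, 2034, 1527 and 1886 genes had an unadjusted p under 0.05 and DESeq2 called 78, 65 and 188 (WT days 1 and 2, TSLPR KO day 8). Over all ganglion libraries Rxra ran from 24.9 to 58.1 cpm, Rxrb from 22.5 to 47.6 cpm and Trpv6 from 0 to 1.57 cpm. The lowest adjusted p was that of Vdr with anti-Gr1, which read 3.16, 2.75, 2.30 and 2.92 cpm with MC903 and 1.81, 2.23, 1.94 and 1.80 cpm with ethanol, without overlap (0.53 ± 0.19, edgeR adjusted p = 0.241). Cyp24a1 at day 2 read 8.76, 7.92 and 10.4 cpm with MC903 against 44.8 and 17.8 cpm (-1.81 ± 0.35, edgeR adjusted p = 0.725). DESeq2 called that difference (-1.83, adjusted p = 0.00246). Without ethanol replicate 2, which leaves only ethanol replicate 1, the edgeR log2 fold change was -2.35. The summed keratinocyte markers of these libraries differed in the same direction without overlap, at 25.77 to 36.003 cpm with MC903 and 52.2 and 91.4 cpm with ethanol. The ethanol ganglion library at 44.8 cpm of Cyp24a1 lay above all ethanol skin libraries, which reached 31.4 cpm. The part of skin RNA in this day 2 difference was not tested. Cyp27b1 was not tested with anti-Gr1 or PBS, where it had fewer than 10 counts in all.

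The Cyp24a1 level of ganglion libraries moved with the sequencing lane. The lane is a field of the deposited names, and 23 ganglion libraries shared it with skin libraries of the same group: those of days 1, 2 and 5 and the bracketed ones of day 8. In the 11 ethanol ganglion libraries of shared lanes Cyp24a1 ran from 2.72 to 44.8 cpm, and in the other 16 from 0 to 0.554 cpm. With MC903 the ranges were 3.52 to 12.6 cpm in 12 shared-lane libraries and 0 to 2.33 cpm in 17 others. At day 8, within 1 group, the bracketed ethanol ganglia read 3.55 and 3.24 cpm and the plain ones 0.262, 0 and 0.354 cpm. The 6 keratinocyte markers, summed, moved with it, from 30.3 to 152 cpm in shared-lane ethanol libraries and from 3.35 to 49.1 cpm in the others. The part of the lane, or of skin RNA in these samples, in the ganglion level of Cyp24a1 was not tested. All 30 ethanol skin libraries shared a lane with MC903 skin libraries of their comparison, so the ethanol level of skin has no such contrast.

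**Figure D4:**
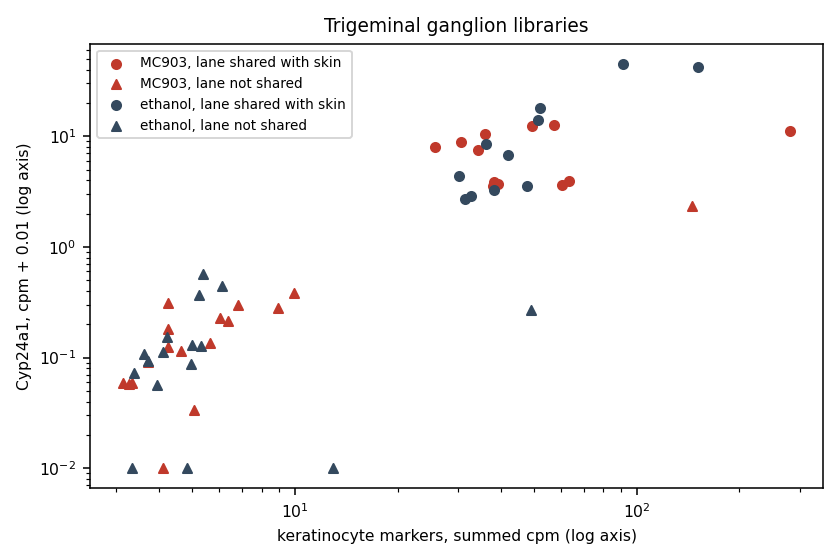
Cyp24a1 in cpm plus 0.01 against summed keratinocyte markers in cpm, both on log axes, in the 56 ganglion libraries by treatment (colour) and by whether the lane was shared with skin (circles) or not (triangles). The shared-lane ethanol libraries lie at 2.72 to 44.8 cpm and the others at 0 to 0.554 cpm.

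A pair of MC903 ganglion libraries stood above the rest in Vdr. At day 1, replicate 1 read 13.1 cpm of Vdr with 281 cpm of keratinocyte markers, and in TSLPR KO mice at day 8, replicate 1 read 11.3 cpm with 146 cpm. All other ganglion libraries had at most 5.95 cpm of Vdr and 152 cpm of these markers.

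In spinal cord 1 of 18 tests was called. Cyp24a1 with anti-Gr1 was at 4 to 15 counts in 8 MC903 libraries and 2 to 4 counts in 6 ethanol libraries, or 0.147 to 0.585 against 0.0724 to 0.160 cpm, with overlap (1.20 ± 0.37, edgeR adjusted p = 0.0419, 11.3% of all genes called). The call was lost with no filter on low counts (edgeR adjusted p = 0.0520) and held in 6 of 14 fits that left out 1 library. The 6 spinal cord markers, summed, were at 2105 to 3475 cpm with MC903 and 3435 to 3966 cpm with ethanol in that comparison, and their part was not tested. In uninjected mice the counts were 3 to 22 against 2 to 6 (1.47 ± 0.66, edgeR adjusted p = 0.176, 12.2% of all genes called) and with PBS 7 to 8 against 3 and 3 (1.27 ± 0.61, edgeR adjusted p = 0.834, 0% of all genes called, 1571 at an unadjusted p under 0.05 and 176 by DESeq2). The levels are near the detection floor of 3 counts. Rxra in uninjected mice read 57.4 cpm on average with MC903 and 47.1 cpm with ethanol without overlap (0.29 ± 0.09, edgeR adjusted p = 0.0579), and DESeq2 called it (adjusted p = 0.0134).

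The tissue contrast was tested directly. The Cyp24a1 effect in skin exceeded that in ganglion by 7.98 ± 0.66 at day 1, 10.58 ± 0.78 at day 5 and 7.14 ± 0.62 at day 8 on the log2 scale (edgeR interaction, adjusted p = 2.46e-05, 1.15e-05 and 3.37e-07, with 1.97%, 4.04% and 8.64% of all genes called). Over spinal cord at day 8 it exceeded by 5.81 ± 0.93 (edgeR interaction, adjusted p = 0.000183, 16.2% of all genes called). These 4 calls held in every fit that left out 1 library. At day 5 the ganglion effect itself was -0.97 ± 0.51, with ethanol libraries at 42.2, 13.9 and 8.52 cpm. The ganglion libraries of days 1 and 5 were all of lanes shared with skin, and the part of the lane in these differences was not tested. Of the other 5 genes only Rxra at day 1 passed, with an effect in skin lower than in ganglion by a difference of -0.77 ± 0.18 (edgeR interaction, adjusted p = 0.0434), held in 4 of 16 such fits.

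Over the 18 skin group means the genes most like Cyp24a1 in pattern, by Pearson's r of mean log2(cpm + 0.5) among 20008 genes, were Pla2g4f (0.976), Cdhr1 (0.975) and Slc45a4 (0.972). Cdhr1 ran from 0.231 to 203 cpm between groups. For Vdr they were Epha4 (0.959), Gpsm2 (0.959) and Enc1 (0.958), and for Trpv6 Vtcn1 (0.944), Cpm (0.932) and 2310007B03Rik (0.930). Those of Rxra (Ugt1a1, Lrrk1, Frmd4b), Rxrb (Ncaph2, Cnppd1, Tead2) and Cyp27b1 (Tspyl3, Epb41l5, Farp1) had r of 0.822 to 0.891. These are descriptions over groups that share treatment and lane, and carry no test.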

How the data were processed

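RNA-seq libraries of skin, trigeminal ganglion and spinal cord were grouped by tissue, treatment, injection, genotype and day from the sample labels. Per the labels and the study's methods, the authors mapped reads to mm10 with TopHat and Bowtie2 and counted them per gene with HTSeq, and what they deposited are whole-number counts for each Ensembl gene, not normalized. The annotation release and the strand setting are not given in the sources used here. Of 46078 genes, 45143 matched a GENCODE M21 symbol. Tally lines were left out of totals; reads on no gene were 6.15% to 21.5% of reads tallied. Depth ran from 15931871 to 67342879 counts, and a gene at 3 counts or fewer was taken as not detectable.

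Each comparison was fitted on its own libraries with edgeR 4.0.16 (R 4.3.3, quasi-likelihood F test, TMM, at least 10 counts in total, Benjamini-Hochberg over all genes tested), with label style (bracketed or plain titles) as a term at WT day 8. Thresholds were 0.05 in skin, cord and interactions and 0.1 in ganglion, after the study's methods, whose DESeq was not run. Standard errors come from the F statistic. Scripts were tested on simulated data. The members and gene lists were chosen with earlier results of these data known. Named genes were the 6 members, pathway genes called in 3 or more skin comparisons or at day 1, the 3 genes nearest each member in pattern, and the deleted genes. Same-numbered MC903 and ethanol libraries correlated above 0.1 in every pair (3 or more pairs) only in ganglion at day 5 in WT and at day 12 in TSLPR KO mice. Alternatives were DESeq2 1.42.0, other scalings and filters, a replicate block, 1 fit over days, either label style alone, and leaving out each library.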

Additional observations from a re-analysis of the deposited data

Results flagged for a closer look

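The MC903 effect differed between groups for 3 genes. For Cyp24a1 the skin effect exceeded the ganglion effect by 7.98, 10.58 and 7.14 on the log2 scale at days 1, 5 and 8. It exceeded the cord effect by 5.81 at day 8. The anti-Gr1 effect on Cyp24a1 exceeded the uninjected WT effect by 2.11, a call held in 7 of 19 fits that left out 1 library. Against PBS, the injected control, the anti-Gr1 effect differed by 0.21 and was not called (edgeR adjusted p = 0.961). For Vdr the BLT1 KO effect exceeded the WT effect, pooled over both label styles, by 1.36. For Rxra the day 1 effect in skin differed from that in ganglion by -0.77, and its skin effect at day 8 differed from that at day 1 by 0.46.

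Of 120 pairs of a gene and a group, 11 held a library far from the others, where chance alone flags about 1 in 20 groups. In skin these were Vdr at 241 cpm in an ethanol library of day 1, Rxrb at 27.3 cpm in an MC903 library of day 1, Rxra at 141 cpm in an MC903 library with anti-Gr1, and Trpv6 at 41.8 cpm in an ethanol library of WT mice at day 8. In ganglion they were Cyp24a1 at 11.2 cpm and Trpv6 at 1.57 cpm in the same MC903 library of day 1, Rxra at 50.4 cpm and Cyp27b1 at 0.486 cpm in MC903 libraries of WT mice at day 8, Cyp24a1 at 0.431 cpm in an ethanol library of TSLPR KO mice at day 12, and Cyp27b1 at 0.0425 cpm with anti-Gr1 and MC903. That last value was 1 count, under the floor of 3 counts, so this flag carries no weight. In cord, Cyp27b1 was at 0.475 cpm in an MC903 library of uninjected mice.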

How the results depend on the processing

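The 16 calls of the 6 genes in skin became 12 to 19 under the other scalings, filters, DESeq2, fits by label style or over days, and 14 to 17 when 1 library was left out. The 81 pathway calls in skin became 68 to 103, and 75 to 84 with 1 library left out. In ganglion the 0 calls became 1 with DESeq2, 1 with no filter and 1 with the replicate block, each Cyp24a1 at day 2, and 0 to 1 with 1 library left out. In cord the 1 call became 2 with RLE size factors, DESeq2 or filterByExpr, where Rxra was called, 0 with no filter, and 0 to 3 with 1 library left out. With the replicate block the calls were 14 in skin, 1 in ganglion, 0 in cord and 68 for the pathway list; in the paired ganglion groups of day 5 and of TSLPR KO mice at day 12 it changed no call of the 6 genes. Differences between days went from 1 call to 4 with DESeq2 and to 1 to 3 with 1 library left out, differences between conditions from 2 to 2 or 3 under other settings and 1 to 3 with 1 library left out, those between tissues from 5 to between 4 and 7 and 4 to 6, and ethanol tissue differences stayed at 14 and went to 12 to 14. No called value of the 6 genes changed sign under any alternative run. The cause of these shifts was not tested. Depth limits Cyp27b1 in ganglion and cord and Cyp24a1 in cord.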
